A study of Mus musculus with 18 samples.

Results

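The unfolded protein response genes described here are Hspa5, Ddit3, Atf4, Xbp1, Creb3l1, Creb3l2, Herpud1, Dnajb9, Sdf2l1 and Calr, taken from a list of symbols and not from any measured value. All 10 were found by symbol among the 49184 mouse genes to which the sequenced transcripts were matched, and all 10 passed the filter on low counts. They were followed in 18 total RNA-Seq libraries of femoral condyle cartilage from wild-type male C57Bl/6J mice, 12 weeks old at the start. The right knee of the injured mice had been loaded once at 12 N under anaesthesia, which tore the anterior cruciate ligament (ACL). There were 6 libraries from naïve mice, which the labels place at day 7, 3 each from injured right and contralateral left knees 1 day after rupture, and 3 each from injured and contralateral knees 7 days after rupture. The contralateral knees came from the injured mice, which had been anaesthetised and given buprenorphine, so that these knees shared the treatment but not the load. Every library was a pool of knees, with 2 mice per sample at day 1 and 4 at day 7 by the scheme of the study. The 6 naïve mice gave separate pools of left and of right knees. The series entry instead states 4 mice for each sample. The labels do not tell which libraries share mice, so the libraries were treated as independent. Left and right pools of the same naïve mice thus counted as separate replicates, and so did both knees of the injured mice. The p-values below measure the spread between pools of knees, not between independent sets of mice. The 6 naïve libraries therefore hold fewer than 6 independent replicates.

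The total of estimated counts per library lay between 16074762 and 41794005, with a median of 25465706. Abundance is given as CPM, the estimated count of a gene relative to its library total after TMM scaling, which corrects the library total for genes that take a large share of it. Ddit3 had the fewest counts, 78 to 383 per library. Calr had the most, 5195 to 22747, except in day 7 contralateral 1, where Hspa5 had 7094 and Calr 5195. The library called day 7 contralateral 1 stood apart from the others. Its 10 most abundant genes took 42.5% of its counts, against 16.6% to 29.8% in the other 17 libraries, and its TMM factor was 0.697. The 3 day 7 injured libraries had factors of 0.830 to 0.852, and the other 14 libraries had factors of 0.962 to 1.16. The study left 1 unnamed library out of its own analysis for low mapping, and whether that library is among the 18 used here is unknown. The libraries did not hold cartilage RNA alone. In naïve libraries the chondrocyte marker list had a summed mean of 6729 CPM. The erythroid list had 34655 CPM, osteoblast and osteocyte 12939 CPM, neutrophil and marrow myeloid 12455 CPM and skeletal muscle 9389 CPM. The remaining marker lists had lower sums than the chondrocyte list. The tissue label was checked against cartilage genes. Acan, which encodes aggrecan, was at 249 to 587 CPM in naïve libraries and at 949, 1064 and 1250.4 CPM in the day 7 injured libraries, and Col2a1, which encodes type II collagen, was at 2595 to 4991 CPM and at 3608, 4114 and 3669 CPM.

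The unfolded protein response restores protein folding in the endoplasmic reticulum (ER). Of its classical sensors, IRE1 splices the messenger RNA of Xbp1, PERK slows translation and favours that of Atf4, and ATF6 is cut in the Golgi to release a transcription factor. Creb3l1 (OASIS) and Creb3l2 (BBF2H7) encode transcription factors that are anchored in the ER membrane and cut in the same way as ATF6. They are known for their part in matrix-secreting cells, Creb3l1 in osteoblasts and Creb3l2 in chondrocytes, where the COPII gene Sec23a is a known target of Creb3l2. Hspa5 (BiP) and Calr (calreticulin) are ER chaperones, Dnajb9 (ERdj4) is a co-chaperone of BiP, Sdf2l1 is an ER protein that works with BiP and its co-chaperones, and Herpud1 (HERP) is a part of ER-associated degradation. Ddit3 (CHOP) is a transcription factor of the prolonged stress response and a classical target of ATF4.

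The promoters of several of these genes are textbook examples of the elements through which the response acts, and the matches are printed because they show which members carry them. The RefSeq promoter windows of build GRCm38.p6, which run from 250 bases before to 50 bases after the transcription start, were searched on both strands for 4 motifs. The ER stress element (ERSE) was CCAAT, any 9 bases and CCACG, ERSE-II was ATTGG, any 1 base and CCACG, the core of the unfolded protein response element (UPRE) was TGACGTGG, and the C/EBP-ATF element was TGATGCAA. ERSE and ERSE-II share their letters, since ATTGG is CCAAT read on the other strand, and the UPRE core holds CGTGG, which is CCACG on the other strand. A window was found for 9 of the 10 genes, all but Creb3l1. ERSE was in 0.119% of the 32851 windows of all genes, ERSE-II in 0.0365%, the UPRE core in 0.676% and C/EBP-ATF in 0.895%. Hspa5 and Calr held an ERSE, and Herpud1 held an ERSE-II and a C/EBP-ATF element. None of the 4 strings was in the windows of Ddit3, Atf4, Xbp1, Creb3l2, Dnajb9 or Sdf2l1, which says only that these exact letters are not there. The sequences below are read 5′ to 3′ on the strand of the gene, with the motif letters in capitals and 5 flanking bases on each side.
Hspa5 ERSE, chr2:34772025-34772043 (plus strand): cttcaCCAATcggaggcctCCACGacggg
Calr ERSE, chr8:84847075-84847093 (minus strand gene, motif on the other strand): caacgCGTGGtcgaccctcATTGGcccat
Herpud1 ERSE-II, chr8:94386377-94386387 (plus strand): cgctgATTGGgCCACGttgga
Herpud1 C/EBP-ATF, chr8:94386317-94386324 (plus strand gene, motif on the other strand): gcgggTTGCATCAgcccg
The Hspa5 element began 65 bases before the RefSeq start, inside the span that GENCODE gives to the gene (2:34771970-34777547). The Calr element began 162 bases before its start, and the Herpud1 elements began 52 and 112 bases before theirs.

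In naïve libraries the chaperones were the most abundant of the 10 per transcript length. This order was read from the deposited TPM (an abundance scaled for transcript length), as means ± SD over 6 libraries. Calr was at 133 ± 27.3 TPM and Hspa5 at 101 ± 17.9 TPM. The transcription factors Atf4 (31.3 ± 3.12 TPM) and Xbp1 (29.2 ± 3.53 TPM) came next, with Herpud1 at 27.6 ± 2.90 TPM. Sdf2l1 (12.4 ± 2.16 TPM), Ddit3 (6.44 ± 1.03 TPM), Dnajb9 (5.56 ± 0.237 TPM), Creb3l2 (4.85 ± 0.779 TPM) and Creb3l1 (3.99 ± 0.916 TPM) followed. Neighbours did not differ beyond the spread of the naïve libraries, except for Hspa5 over Atf4, Herpud1 over Sdf2l1 and Sdf2l1 over Ddit3, which held this order in all 18 libraries. In the day 7 injured libraries Creb3l1 was at 9.08 ± 2.85 TPM and Creb3l2 at 8.33 ± 2.21 TPM (SD, n = 3), the 7th and 8th of the 10, and Ddit3 was last at 4.75 ± 0.857 TPM. TPM were used for the order of genes within a library and not between groups, because the whole scale moved. The median of all 21129 tested genes lay 0.55 log2 units above naïve in day 1 injured libraries and at −0.38 relative to naïve in day 7 injured libraries, and the medians of the 10 genes lay at 0.50 and 0.05.

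**Figure D1:**
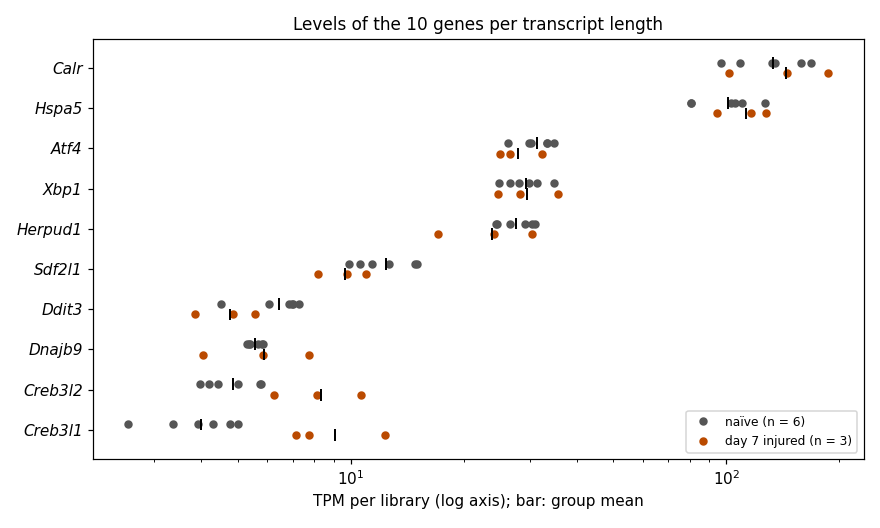
TPM of the 10 genes in naïve (n = 6) and day 7 injured (n = 3) libraries on a log axis, where each point is a library and each bar a group mean. Calr and Hspa5 lie highest in both groups, and Creb3l1 and Creb3l2 move from the foot of the order to above Ddit3 and Dnajb9.

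The first question was whether these genes had changed in injured relative to naïve cartilage at day 7 post injury, tested on the 15 libraries outside the day 7 contralateral group. The ER-anchored transcription factors Creb3l1 and Creb3l2 rose 2.80-fold and 2.24-fold. Xbp1, Hspa5, Calr and Dnajb9 were 1.31 to 1.40-fold higher and passed the FDR limit but not the 1.5-fold limit. Atf4, Ddit3, Sdf2l1 and Herpud1 did not pass. FDR is the p-value of edgeR's quasi-likelihood test adjusted by the Benjamini-Hochberg method over all genes tested. Genes were called where the FDR did not exceed 0.05 and the difference reached 1.5-fold. Hence 2 of the 10 genes were called higher and 0 lower, against 10.4% and 6.11% of the 21129 genes tested. By the FDR limit alone 6 of 10 were higher and 0 lower, against 18.7% and 11% of all genes. The median log2 fold change was 0.40 for the 10 genes and −0.04 for all genes. These libraries are bulk tissue, in which more RNA per cell and more cells of a kind that expresses a gene cannot be told apart.

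Creb3l1 had 11.7 to 22.0 CPM in naïve libraries, with a median of 20.1 CPM. In the day 7 injured libraries it had 48.7, 44.7 and 65.2 CPM, so that the lowest of these was above every other library of the series, of which the highest had 26.2 CPM. The log2 fold change was 1.49 ± 0.20 (SE), with an edgeR FDR of 4.57e-05. Creb3l2 had 53.7 to 70.0 CPM in naïve libraries (median 63.1 CPM) and 118.6, 132 and 158 CPM in day 7 injured libraries, again above all 15 other libraries. Its log2 fold change was 1.16 ± 0.12 (SE), with an edgeR FDR of 3.73e-06. In both genes day 7 injured library 3 was the highest. Without any 1 of the 15 libraries of the fit, the log2 fold change stayed within 1.31 to 1.59 for Creb3l1 and within 1.04 to 1.26 for Creb3l2, and both were called each time.

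Xbp1, the transcription factor downstream of IRE1, had 78.6 to 105 CPM in naïve libraries (median 97.8 CPM) and 118.6, 117 and 134 CPM in day 7 injured libraries, which did not overlap. The value of day 7 injured library 1 equals that of Creb3l2, since the rounded count was 2613 for both genes. The log2 fold change was 0.41 ± 0.10 (SE; edgeR FDR 0.00649), a 1.33-fold difference. The files tell nothing of its splicing by IRE1, since none of the 4 listed Xbp1 transcripts has an intron shorter than 300 bases, whereas the stretch removed by IRE1 is a short one within an exon. The main transcript, Xbp1-201, held 84.3% of the Xbp1 counts on average over the libraries. Day 7 contralateral 1 differed, with 44.9% in Xbp1-201 and 39.6% in Xbp1-204. Atf4, the transcription factor downstream of PERK, overlapped between groups, with 84.1 to 102 CPM in naïve libraries (median 98.7 CPM) and 110, 98.7 and 109 CPM in day 7 injured libraries. Its log2 fold change was 0.15 ± 0.08 (SE; edgeR FDR 0.143). Much of the control of Atf4 is known to lie in its translation, which these libraries do not measure. Ddit3 had 7.82 to 9.98 CPM in naïve libraries (median 8.84 CPM) and 7.26, 9.12 and 7.35 CPM in day 7 injured libraries, with a log2 fold change of −0.16 ± 0.11 (SE; edgeR FDR 0.285). A transcript with a retained intron held 22.8% of the Ddit3 counts on average over the libraries. Its share was 19.9% to 36.2% in naïve libraries and 11.4% to 18.5% in day 7 injured libraries, and 15.4% to 19.6% in day 7 contralateral libraries, which overlapped with the injured ones. These shares were not tested. With protein-coding transcripts only the log2 fold change of Ddit3 was −0.09 (edgeR FDR 0.628).

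The abundant chaperones were modestly higher. Hspa5 had 332 to 472 CPM in naïve libraries (median 431 CPM) and 537, 591 and 601 CPM in day 7 injured libraries. These groups did not overlap, but day 7 contralateral 1 lay between the injured libraries, at 552 CPM. The log2 fold change against naïve was 0.48 ± 0.13 (SE; edgeR FDR 0.010), a 1.40-fold difference. Calr had 350 to 536 CPM in naïve libraries (median 493 CPM) and 549, 624.9 and 743 CPM in day 7 injured libraries, all above the 15 other libraries. Its log2 fold change was 0.45 ± 0.14 (SE; edgeR FDR 0.0245). It no longer passed the FDR limit without day 7 injured library 2 (0.47, edgeR FDR 0.0599) or library 3 (0.33, edgeR FDR 0.149).

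Among the partners of the chaperones, Dnajb9 had 20.6 to 28.3 CPM in naïve libraries (median 24.0 CPM) and 24.5, 30.8 and 37.8 CPM in day 7 injured libraries, so that the lowest injured library fell inside the naïve range. Its log2 fold change was 0.39 ± 0.13 (SE; edgeR FDR 0.0304). In 4 of the 15 fits that left out 1 library it missed the FDR limit, with the lowest log2 fold change, 0.23 (edgeR FDR 0.235), when day 7 injured library 3 was absent. The other fits that missed it were those without naïve library 3 (0.35, FDR 0.0576), naïve library 6 (0.37, FDR 0.0539) and day 7 injured library 2 (0.40, FDR 0.0776) by edgeR. Sdf2l1 had 17.3 to 27.2 CPM in naïve libraries (median 23.8 CPM) and 21.5, 21.7 and 21.8 CPM in day 7 injured libraries, which lay close together inside the naïve range. Herpud1 had 67.8 to 79.6 CPM in naïve libraries (median 71.7 CPM) and 73.2, 71.5 and 83.5 CPM in day 7 injured libraries. Neither passed, at log2 fold changes of −0.05 ± 0.17 and 0.09 ± 0.09 (SE; edgeR FDR 0.841 and 0.472).

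**Figure D2:**
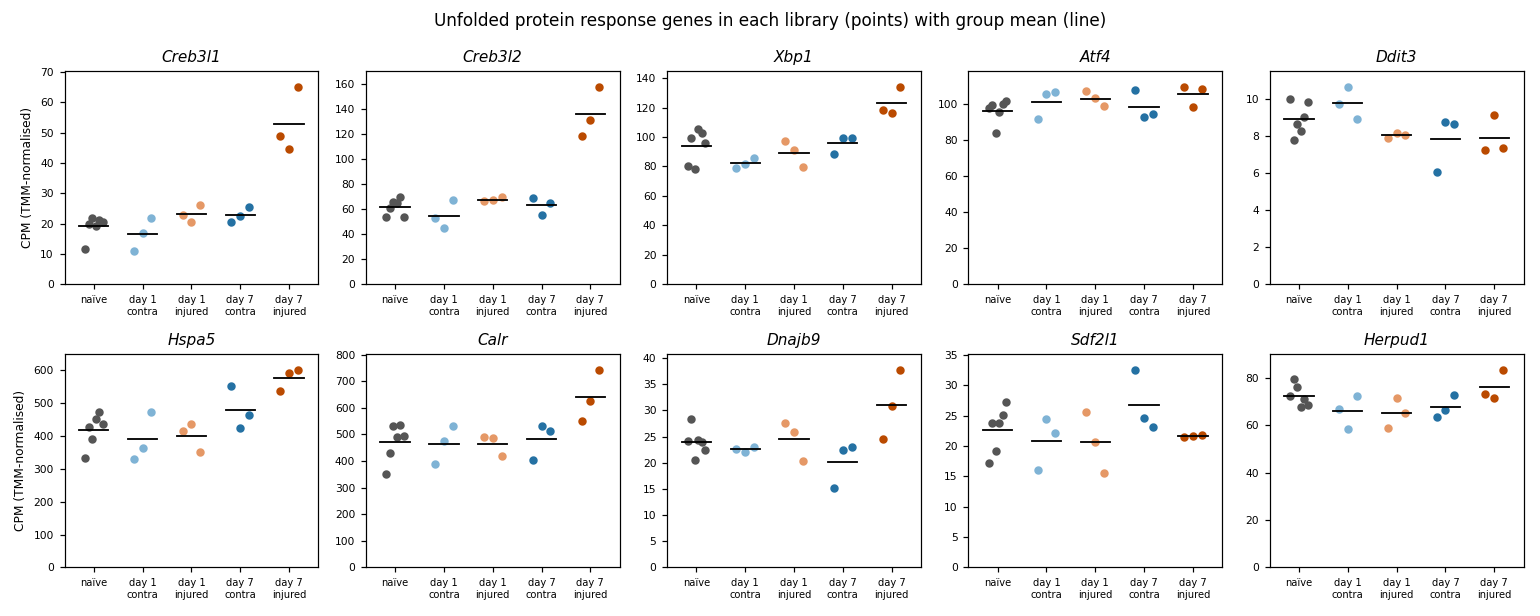
CPM of each gene in every library, by group, with the group mean as a line and axes that start at 0. The day 7 injured points of Creb3l1, Creb3l2, Xbp1 and Calr lie above all 15 other libraries, and those of Atf4, Ddit3, Sdf2l1, Herpud1 and Dnajb9 overlap with naïve.

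For Hspa5, Xbp1, Creb3l1, Creb3l2 and Calr, 5 of the 10 genes, the lowest day 7 injured library exceeded the highest naïve one, which was so for 17.3% of the genes tested. For 4 of them, all but Hspa5, it exceeded all 15 other libraries, which was so for 12% of the genes tested. The processing bears on the smaller differences. Of the 6 genes past the FDR limit, 5 remained past it with the length offset and 5 with all 18 libraries in the fit, and 4 with protein-coding transcripts only. Dnajb9 was over the limit in all of these (edgeR FDR 0.0502, 0.0675 and 0.109), and Calr with protein-coding transcripts (edgeR FDR 0.0626). With library totals alone, without TMM factors, all genes together shifted to a median of −0.35 on the log2 scale, and the share of calls that were higher went from 63.1% to 21.8%. Creb3l1 (1.18) and Creb3l2 (0.85) were still called. Hspa5 (0.17, FDR 0.269), Xbp1 (0.10, FDR 0.452), Calr (0.14, FDR 0.412) and Dnajb9 (0.08, FDR 0.609) no longer passed the edgeR FDR limit, and Atf4 (−0.17) and Herpud1 (−0.23) changed sign. Ddit3 was at −0.48 and then passed the FDR limit as lower (edgeR FDR 0.00844). The median of the 10 genes was 0.09 with this scaling, beside −0.35 for all genes.

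The contralateral knee served as a second control at day 7, tested on all 18 libraries. It shares the injured libraries with the comparison above. Creb3l1 had 20.6, 22.5 and 25.4 CPM in contralateral knees, and its log2 fold change in injured knees was 1.21 ± 0.23 (SE; edgeR FDR 0.00118). Creb3l2 had 68.6, 55.6 and 64.6 CPM, and its log2 fold change was 1.11 ± 0.14 (SE; edgeR FDR 3.23e-05). Each contralateral library was below every injured one for both genes. Dnajb9 was called as well, with 15.2, 22.5 and 22.9 CPM in contralateral knees and a log2 fold change of 0.61 ± 0.17 (SE; edgeR FDR 0.0175). That call was lost without day 7 contralateral 1 (0.47, edgeR FDR 0.0575) and without day 7 injured library 3 (0.44, edgeR FDR 0.121). Xbp1, at 88.4, 99.0 and 99.4 CPM in contralateral knees, passed the FDR limit only (0.37 ± 0.12, edgeR FDR 0.0371). It missed that limit in 6 of 18 fits that left out 1 library, namely day 1 contralateral 2, any day 7 contralateral library, or day 7 injured library 1 or 3 (0.29 to 0.39, edgeR FDR 0.0502 to 0.173), without the filter on low counts (edgeR FDR 0.0799), with library totals alone (0.21, edgeR FDR 0.441) and with an offset for transcript length (0.089, edgeR FDR 0.729).

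So 3 of the 10 genes were called higher and 0 lower against contralateral knees, beside 9.33% and 3.23% of the 21262 genes tested. By the FDR limit alone 4 were higher and 0 lower, beside 12.5% and 6.16% of all genes. With library totals alone 2 were called, Dnajb9 being at 0.43 (edgeR FDR 0.211), and the share of all calls that were higher went from 74.3% to 52.4%. Hspa5 (0.26 ± 0.15, edgeR FDR 0.253) and Calr (0.41 ± 0.17, edgeR FDR 0.105) did not pass. The contralateral values of Calr, 404, 530 and 512 CPM, were all below the injured ones. Sdf2l1 was the reverse, with 32.5, 24.6 and 23.1 CPM in contralateral knees, each above the injured libraries, and a log2 fold change of −0.30 ± 0.20 (SE; edgeR FDR 0.330). Atf4 (0.10), Herpud1 (0.17) and Ddit3 (0.00) did not pass either.

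**Figure D3:**
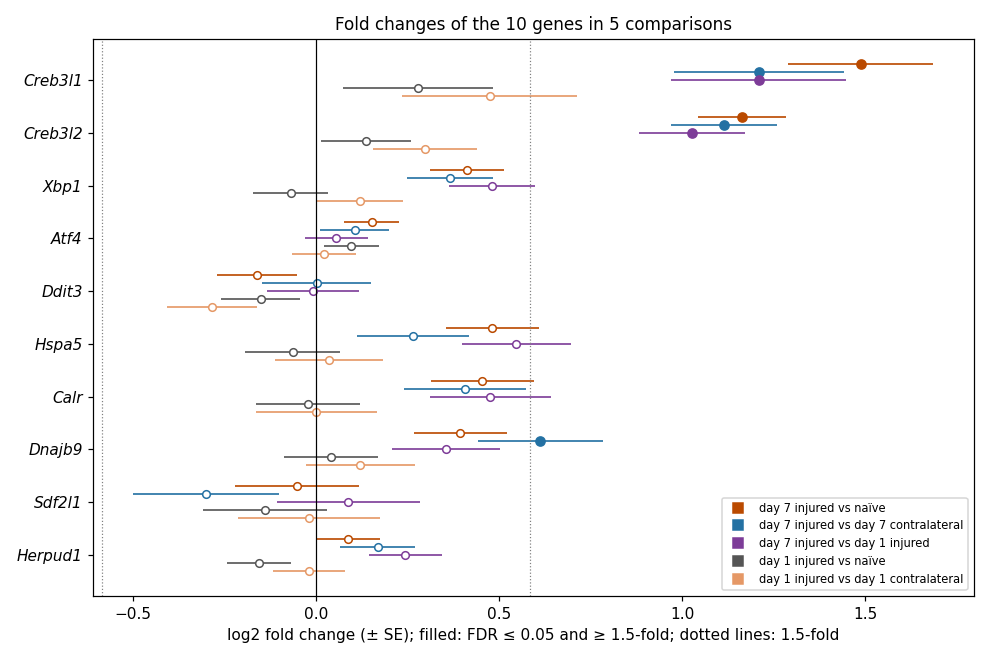
The 10 genes in 5 comparisons as log2 fold changes (points) with their SE (lines), with filled points for genes called and dotted lines at 1.5-fold. Creb3l1 and Creb3l2 are called in the 3 comparisons of day 7 injured knees, and Dnajb9 in the one with day 7 contralateral knees, while all points of day 1 are open.

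At day 1 post injury none of the 10 genes was called against naïve or against contralateral knees. Creb3l1 had 22.8, 20.6 and 26.2 CPM in injured and 11.1, 16.9 and 21.8 CPM in contralateral knees, which overlapped. Creb3l2 had 66.2, 67.5 and 69.6 CPM in injured and 52.6, 45.0 and 67.3 CPM in contralateral knees. Their log2 fold changes between these knees were 0.47 ± 0.24 and 0.30 ± 0.14 (SE; edgeR FDR 0.764 and 0.755). Ddit3 was the only member with an unadjusted p under 0.05 (0.0350) in that comparison, at 7.92, 8.14 and 8.08 CPM in injured and 9.74, 10.7 and 8.95 CPM in contralateral knees, which did not overlap (log2 fold change −0.28 ± 0.12, SE; edgeR FDR 0.755). Hspa5 was at 413, 436 and 350 CPM in day 1 injured knees, inside the naïve range.

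The naïve libraries carry the label of day 7, so that day 1 knees also differ from them in day. Against naïve, the log2 fold changes of the 10 genes at day 1 injured ran from −0.16 to 0.28, with all edgeR FDR at or above 0.987. No gene of the whole transcriptome was called there by edgeR (0 of 21129, 0%), while 959 had an unadjusted p under 0.05, of which none was a member, DESeq2 called 15 and limma-voom 0. Between day 1 injured and contralateral knees edgeR again called 0% of genes, 1383 had an unadjusted p under 0.05, and DESeq2 and limma-voom called 0. The contralateral knees were compared with naïve too. At day 1, edgeR called 0% of 21129 genes, with 554 at an unadjusted p under 0.05, 2 called by DESeq2 and 0 by limma-voom, and no member had an unadjusted p under 0.05. At day 7, edgeR called 0% of 21262 genes, with 3220 at an unadjusted p under 0.05, 8 called by DESeq2 and 0 by limma-voom, and again no member had an unadjusted p under 0.05. The log2 fold changes of the 10 genes in contralateral knees ran from −0.20 to 0.13 at day 1 and from −0.24 to 0.26 at day 7.

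Day 7 injured knees were also compared directly with day 1 injured knees, which share the injured libraries with the comparisons above. Creb3l1 (1.21 ± 0.24, edgeR FDR 0.00214) and Creb3l2 (1.03 ± 0.14, edgeR FDR 0.000145) were called higher, 2 of the 10 with 0 lower, against 9.04% and 6.38% of genes tested. By the FDR limit alone 5 were higher and 0 lower, against 16.2% and 8.2% of genes, with Hspa5 at 0.55 ± 0.15 (edgeR FDR 0.0157), Xbp1 at 0.48 ± 0.12 (edgeR FDR 0.00872) and Calr at 0.48 ± 0.17 (edgeR FDR 0.0479). Calr missed that limit in 11 of 15 fits that left out 1 library (lowest 0.36, edgeR FDR 0.178, without day 7 injured library 3), and Hspa5 in 1, without day 1 injured library 3 (0.45, edgeR FDR 0.0686). With library totals alone Creb3l2 lost its call and 1 of the 10, Creb3l1, was called, and the share of all calls that were higher went from 58.6% to 11.6%.

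Whether injury acted more strongly at day 7 than at day 1 was tested as the difference between the injured minus contralateral log2 fold changes of both days. Of the 10 genes it was called for Creb3l2, at 0.81 ± 0.20 (SE; edgeR FDR 0.0305), with 3.53% of the 21262 genes called higher and 0.245% lower. Creb3l1 was at 0.73 ± 0.32 (SE; edgeR FDR 0.269) and Dnajb9 at 0.49 ± 0.24 (SE; edgeR FDR 0.324). The Creb3l2 call was lost with library totals alone and with an offset for transcript length. It was held in 10 of 18 fits that left out 1 library. It was lost without day 1 contralateral 3 (0.63), day 1 injured 1 (0.79), 2 (0.81) or 3 (0.83), day 7 contralateral 2 (0.72) or 3 (0.81) and day 7 injured 2 (0.84) or 3 (0.69), with edgeR FDR of 0.0532 to 0.123.

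The other genes of the response and of the early secretory pathway were taken from 7 fixed lists, and are described by their counts between day 7 injured and naïve libraries, beside 10.4% of all genes called higher and 6.11% lower. For counts by the FDR limit alone, the matching shares of all genes are 18.7% higher and 11% lower. Of the 6 sensors and their proteases none was called, and 4 passed the FDR limit alone in the direction of higher. Mbtps1, the site-1 protease that cuts ATF6 and the CREB3 family, went from 95.4 to 129 CPM (log2 fold change 0.45 ± 0.06, edgeR FDR 1.99e-05). Eif2ak3, which encodes PERK, went from 46.4 to 63.8 CPM (0.48 ± 0.07, edgeR FDR 0.000111). The median of this list was 0.26.

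Of the 5 CREB3 family genes 4 were called higher and 0 lower. Beside Creb3l1 and Creb3l2, Creb3 was called, from 17.3 to 22.4 CPM in naïve libraries to 35.8, 39.7 and 40.0 CPM at day 7 (0.93 ± 0.10, edgeR FDR 3.92e-06). Creb3l4 was called at a very low level, from a mean of 0.344 to 0.608 CPM (0.84 ± 0.28, edgeR FDR 0.0362), and did not pass against contralateral knees (edgeR FDR 0.187). Creb3l3, at 0.987 and 1.38 CPM, was not called (0.49 ± 0.29, edgeR FDR 0.211), and the median was 0.93. This list holds Creb3l1 and Creb3l2 themselves.

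Of 20 genes of the integrated stress response, the branch around PERK and Atf4, 2 were called higher and 0 lower, a share close to the 10.4% of all genes, and the median was 0.02. Both called genes are stress-inducible transcription regulators. Atf3 had 4.29 to 8.54 CPM in naïve and 14.02, 13.2 and 19.6 CPM in day 7 injured libraries (1.39 ± 0.20, edgeR FDR 8.33e-05), and Nupr1 13.4 to 19.9 CPM and 35.5, 43.9 and 48.2 CPM (1.36 ± 0.18, edgeR FDR 3.98e-05). By the FDR limit alone 3 were higher and 2 lower, beside 18.7% and 11% of all genes, so that neither count exceeded the share of all genes. The 2 lower genes were picked out after their values were seen. They are the kinase gene Eif2ak1 (−0.40 ± 0.07, edgeR FDR 0.000890) and the phosphatase subunit gene Ppp1r15a (−0.40 ± 0.11, edgeR FDR 0.0134), also known as GADD34. Against contralateral knees Ppp1r15a was called lower (−0.60 ± 0.15, edgeR FDR 0.00974), and Eif2ak1 did not pass the FDR limit as lower.

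Of 20 ER chaperones and folding enzymes outside the 10 genes, 8 were called higher and 0 lower, 14 passed the FDR limit alone, and the median was 0.51. Fkbp11, an ER prolyl isomerase, went from 4.48 to 11.7 CPM (1.40 ± 0.31, edgeR FDR 0.00345). Txndc5, a protein disulfide isomerase, had 79.8 to 133 CPM in naïve and 208, 230 and 263 CPM in day 7 injured libraries (1.33 ± 0.20, edgeR FDR 0.000119). P4hb, which is both a disulfide isomerase and the beta subunit of collagen prolyl 4-hydroxylase, had 284 to 452 CPM and 689, 694 and 733 CPM (0.97 ± 0.15, edgeR FDR 0.000155). Of 20 genes of ER-associated degradation 4 were called higher and 0 lower, with 9 by the FDR limit alone and a median of 0.20. Selenos went from 20.6 to 33.9 CPM (0.73 ± 0.13, edgeR FDR 0.000543) and Selenok from 23.2 to 35.9 CPM (0.64 ± 0.09, edgeR FDR 5.41e-05), both ER selenoproteins, and the ubiquitin-conjugating enzyme gene Ube2g2 went from 31.0 to 46.9 CPM (0.62 ± 0.09, edgeR FDR 0.000110). Of these, Selenos and Ube2g2 did not pass the FDR limit against contralateral knees (edgeR FDR 0.109 and 0.652).

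Of 20 genes of ER translocation, 5 were called higher and 0 lower, and 16 passed the FDR limit alone as higher and 1 as lower (Sec11c, −0.36, edgeR FDR 0.0261), with a median of 0.46. Ssr3, a subunit of the translocon-associated complex, had 169 to 206 CPM in naïve and 313, 321 and 339 CPM in day 7 injured libraries (0.79 ± 0.09, edgeR FDR 1.25e-05). Sec61a1, the channel subunit, went from 150 to 255 CPM (0.79 ± 0.15, edgeR FDR 0.00118) and Ssr2 from 55.8 to 89.3 CPM (0.70 ± 0.12, edgeR FDR 0.000636). Of 20 genes of the COPII coat, its cargo receptors and the KDEL receptors, 10 were called higher and 0 lower, 16 passed the FDR limit alone, and the median was 0.62. The KDEL receptors return escaped chaperones to the ER. Kdelr3 had 9.98 to 19.2 CPM in naïve and 51.9, 54.2 and 68.3 CPM in day 7 injured libraries (2.11 ± 0.21, edgeR FDR 3.09e-06), and Kdelr2 61.6 to 109 CPM and 175, 178 and 196 CPM (1.22 ± 0.18, edgeR FDR 0.000116). The COPII coat gene Sec24d went from 53.1 to 138 CPM (1.39 ± 0.16, edgeR FDR 8.49e-06). Sec23a, named after its values were seen because it is a known target of Creb3l2, was called at 0.99 ± 0.09 against naïve (edgeR FDR 1.44e-06) and at 1.05 ± 0.12 against contralateral knees (edgeR FDR 8.15e-06).

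**Figure D4:**
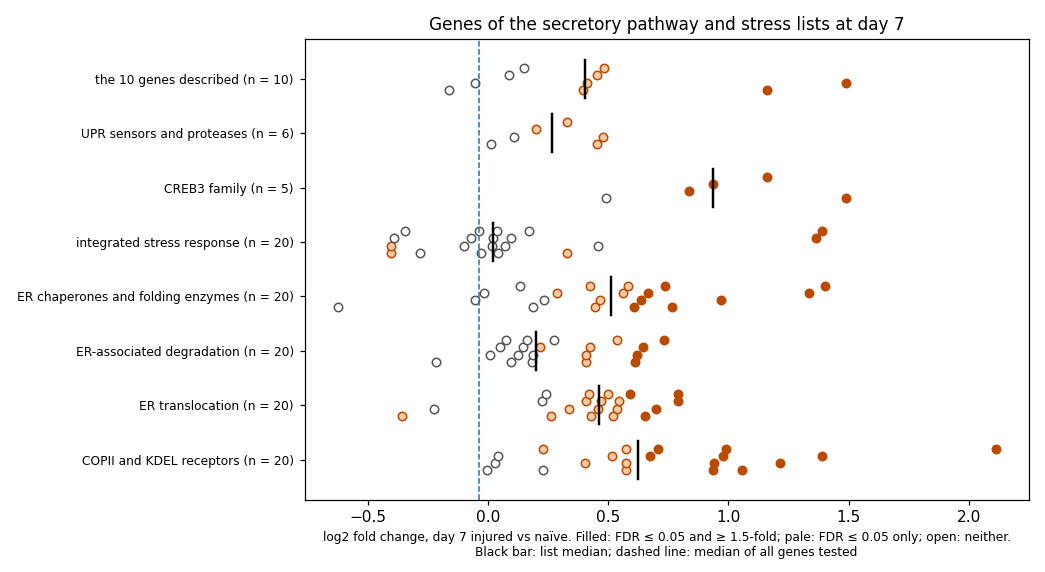
Each point is a gene of the 10 described or of 7 pathway lists, placed by its log2 fold change against naïve at day 7 after injury, filled where called and pale where only the FDR limit was passed, with list medians as black bars and the median of all genes as a dashed line. The COPII and KDEL receptor genes have a median of 0.62 and reach 2.11 (Kdelr3), and the integrated stress response is centred near 0 with Atf3 and Nupr1 apart.

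Against contralateral knees the calls were 0 of 6 sensors and proteases, 3 of 5 CREB3 family genes, 2 higher and 1 lower of 20 integrated stress response genes, 5 of 20 chaperones and folding enzymes, 1 of 20 degradation genes, 7 of 20 translocation genes and 11 of 20 COPII and KDEL receptor genes. Except for Ppp1r15a all of them were higher, and the shares over all genes were 9.33% higher and 3.23% lower, so that the counts of the stress response and degradation lists were near or below the share of all genes. The medians were 0.24, 0.76, −0.11, 0.21, 0.12, 0.42 and 0.66 in the same order, beside −0.05 for all genes.

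Some markers of other cell types also differed between day 7 injured and naïve libraries. Of all genes tested, 10.4% were called higher and 6.11% lower against naïve. Against day 7 contralateral knees the shares were 9.33% and 3.23%. In lists this short, a count of 0 or 1 does not set a list apart from these shares. The fixed list of 10 synovial and activated fibroblast genes had 7 called higher and 0 lower against naïve, with a median log2 fold change of 1.80, and 8 higher and 0 lower against day 7 contralateral knees, with a median of 2.39. Its summed level was 24789, 25444 and 28777 CPM in day 7 injured libraries, against a mean of 2224 CPM in naïve and 2453 CPM in day 7 contralateral libraries, and its most abundant gene, Col3a1, went from a mean of 1825 to 22643 CPM. The osteoblast and osteocyte list of 10 genes had 1 called higher and 2 lower, and its sum followed Col1a1, the most abundant, which encodes a chain of type I collagen. That sum was 51504, 47385 and 55094 CPM in day 7 injured libraries, 52857 CPM in day 7 contralateral 1, and 16114 and 22330 CPM in the other day 7 contralateral libraries. Creb3l1 and Creb3l2 in day 7 contralateral 1 were at 20.6 and 68.6 CPM.

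The other lists are given against naïve first. The chondrocyte list of 15 genes had 4 called higher and 1 lower, led by Col2a1 in abundance, with summed means of 6729 CPM in naïve and 9882 CPM in day 7 injured libraries. The hypertrophic chondrocyte list of 6 genes, led by Col10a1, had 3 higher and 0 lower, and the endothelial list of 7, led by Vwf, also 3 higher and 0 lower. The osteoclast list of 7, led by Mmp9, had 1 higher and 0 lower, and the macrophage list of 10, led by Itgam, had 0 of either. Plasma cells, which are known to depend on Xbp1, were represented by 10 genes, led by Ighm, of which 9 were tested and only Sdc1 was called higher, with summed means of 559 CPM in naïve and 549 CPM in day 7 injured libraries.

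Against naïve, the blood, marrow and fat lists had members called lower and none called higher. The erythroid list, led by Hbb-bs, whose reads may be shared with its near copy Hbb-bt, had 0 of 8 higher and 5 lower, with summed means of 34655 CPM in naïve and 22601 CPM in day 7 injured libraries. The neutrophil and marrow myeloid list of 10, led by Ngp, had 0 higher and 2 lower, the adipocyte list of 7, led by Cfd, 0 higher and 4 lower, and the B cell list of 10, led by Ebf1, 0 higher and 1 lower. The skeletal muscle list of 8, led by Ttn, and the proliferation list of 10, led by Mki67, had 0 of either. Against day 7 contralateral knees the counts were different for several lists. The hypertrophic chondrocyte list then had 0 of 6 called (median 0.17), the osteoclast list 0 of 7 (median −0.13) and the B cell list 1 higher and 0 lower. The chondrocyte list had 5 higher and 0 lower with a median of −0.23, and its summed mean was 9294 CPM in contralateral knees. The osteoblast and osteocyte, macrophage and proliferation lists had 0 higher and 1 lower each, and the skeletal muscle list 0 of either. The erythroid list had 0 higher and 4 lower, the neutrophil list 0 and 3, the adipocyte list 0 and 4, the endothelial list 3 and 0, and the plasma cell list 1 and 0. No matched marker of the 14 lists was at 0 in all libraries. The part of these lists in the results above was not tested.

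**Figure D5:**
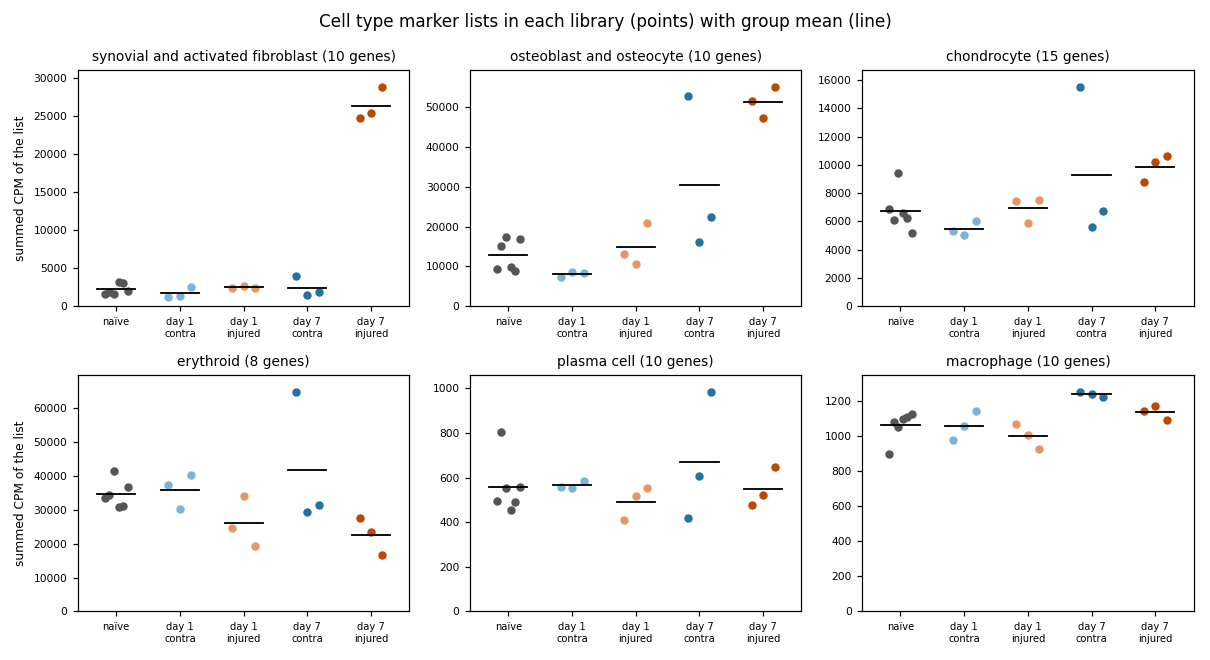
Summed CPM of 6 marker lists in every library, by group, with the group mean as a line. The fibroblast sum is high in the 3 day 7 injured libraries only, while the osteoblast sum, which is nearly all Col1a1, is as high in 1 day 7 contralateral library.

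The genes most like each member over the 18 libraries were looked for among 11447 protein-coding genes with a mean of at least 5 CPM, by Pearson's r of log2(CPM + 1). The libraries share groups, and the day 7 injured group stands apart for many genes, so that these values are a description only. Creb3l2 was nearest to Plod1, a lysyl hydroxylase of collagen (r = 0.989), which went from a mean of 52.7 CPM in naïve to 155 CPM in day 7 injured libraries, and to Maged1 (r = 0.988). Creb3l1 was nearest to Sh3pxd2b (r = 0.966), an adaptor protein of podosomes, and Sidt2 (r = 0.963). Hspa5 was nearest to the zinc transporter gene Slc39a9 (r = 0.954) and to Tagln2 (r = 0.949), Calr to Ehd4 (r = 0.943) and Atp10a (r = 0.934), and Xbp1 to Arl8b (r = 0.927) and Hspa13 (r = 0.925).

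For the remaining members the highest values were lower for some. Dnajb9 was nearest to Zfp36l1 (r = 0.902) and Pcgf3 (r = 0.896), Ddit3 to Dynlt1a (r = 0.889), which has near-identical copies, Sdf2l1 to Ogfr (r = 0.882) and Myd88 (r = 0.877), Atf4 to Ell (r = 0.826) and Rnf181 (r = 0.777), and Herpud1 to Lrrc75a (r = 0.783) and Ppp1r13b (r = 0.743). Without day 7 contralateral 1, r was lower for Dnajb9 with Zfp36l1 (0.841), Ddit3 with Dynlt1a (0.812) and Sdf2l1 with Ogfr (0.844). Atf4 with Ell (0.819) and Herpud1 with Lrrc75a (0.775) moved less. Among the members themselves, Creb3l1 and Creb3l2 had r = 0.92 over 18 libraries and 0.62 over the 15 without day 7 injury. Hspa5 and Xbp1 had 0.81 and 0.63, and Hspa5 and Sdf2l1 0.54 and 0.81. Day 7 contralateral 1 was the highest of those 15 libraries for both Hspa5 (552 CPM) and Sdf2l1 (32.5 CPM).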

How the data were processed

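Cartilage RNA was sequenced as ribosome-depleted, stranded total RNA. The authors trimmed the reads with Trimmomatic and quantified them with Kallisto against a mouse GRCm38 transcriptome, and the deposited values are estimated counts and TPM per transcript. The submitters' processing notes name kallisto and DESeq2, and a human build, but the transcript identifiers are those of mouse. The authors left 1 ACL library out for low mapping without naming it, and whether it is among the 18 libraries used here is unknown. Estimated counts were summed per gene (GENCODE vM21, where 98.3% of 137436 transcripts matched, and the others held 0.667% to 3.90% of counts per library) and rounded. Ddit3 is the symbol of a pair of overlapping genes, of which the one with counts was used.

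Genes were filtered by group (filterByExpr), TMM-scaled and tested with edgeR 4.0.16 (quasi-likelihood, R 4.3.3), called at FDR 0.05 and 1.5-fold, with FDR by Benjamini-Hochberg. Comparisons without day 7 contralateral knees were fitted on 15 libraries, others on 18. Replicate numbers are names in accession order, and nothing in the labels pairs libraries. Alternatives were DESeq2 size factors, library totals alone, no filter, DESeq2 1.42.0, limma-voom 3.58.1, a transcript length offset from the deposited effective lengths, protein-coding transcripts only, all 18 libraries, other call limits and leaving out each library. The code was tested on simulated data. The members, lists and tests were chosen with earlier results of these data known. Named genes were the members, up to 3 called genes per pathway list with the largest change (or the 2 with the lowest p where fewer than 2 were called), the 2 most like each member (1 of them is not reported here), and the most abundant marker per list, with Acan and Col2a1 as checks. Creb3l3, Sec11c, Eif2ak1, Ppp1r15a, Sec23a and Sdc1 lie outside this rule and were named after their values were seen. Of the members, Ddit3 had the fewest counts.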

Additional observations from a re-analysis of the deposited data

Results flagged for a closer look

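Among the 10 groups of 6 naïve values examined, 1 for each gene, 2 held a library far from the others. Atf4 in naïve library 3 was at 84.1 CPM, below the other naïve libraries, with a gap to the nearest of 0.646 of the whole range. Creb3l1 in naïve library 1 was at 11.7 CPM, with a gap of 0.736 of the range, against a critical value of 0.625. Chance flags about 1 in 20 such groups. The injury effect on Creb3l2 was called as different between days, by 0.81 on the log2 scale (edgeR FDR 0.0305), being larger at day 7 than at day 1. That call was held in 10 of 18 fits that left out 1 library. It was lost with library totals alone and with the length offset.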

How the results depend on the processing

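No paired analysis was made because the labels do not say which libraries share mice. The study's own limma-voom fits accounted for shared mouse pools, and the tests here did not. Creb3l1 and Creb3l2 were called against naïve and against day 7 contralateral knees under every alternative tool, scaling and filter and without any 1 library, with log2 fold changes of 1.18 to 1.51 and 0.85 to 1.16 against naïve and 1.05 to 1.22 and 0.99 to 1.11 against contralateral knees over the alternatives that kept all libraries. By the FDR limit alone, 6 members were higher against naïve and 5 against day 1 injured knees, instead of 2 in each. With library totals alone 1 member, Creb3l1, was called against day 1 injured knees. The difference between the injury effects at days 7 and 1 was called for 0 members at an FDR of 0.01, with library totals alone and with the length offset, and for 0 to 1 members when 1 library was left out. Ddit3 against contralateral knees, 0.00 as reported, changed sign to −0.0062 with DESeq2 size factors, −0.18 with library totals alone, −0.010 without a filter, −0.029 with DESeq2, −0.029 with limma-voom and −0.021 with protein-coding transcripts, and ran from −0.12 to 0.074 when 1 library was left out. With library totals alone Atf4 changed sign to −0.17 against naïve and −0.022 against contralateral knees, and Herpud1 to −0.23 against naïve, and to −0.036 with protein-coding transcripts. Sdf2l1 against naïve ran from −0.12 to 0.0020 when 1 library was left out. Dnajb9 was not called against contralateral knees with library totals alone (0.43), limma-voom (0.58, FDR 0.0267) or protein-coding transcripts (0.55, FDR 0.0251). The causes were not tested.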
